A study of Ipomoea batatas with 12 samples.

Results

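LOX2.1 (gene ID G9582) is the sweetpotato gene annotated by the study as the chloroplast linoleate 13S-lipoxygenase 2-1, and it was taken by its ID as 1 gene of the 50592 that the deposited tables list. It was 1 of the 12295 genes with at least 1 FPKM in at least 3 libraries, which were the genes tested. FPKM are fragments of a transcript scaled to its length and to the fragments aligned, so they correct for gene length and library size. RNA of sweetpotato (Ipomoea batatas, cultivar Xuzishu 8) was sequenced in 4 groups of 3 libraries each: drought with heat (DH), heat alone (HT), drought alone imposed with polyethylene glycol (DR), and unstressed control (CK). Every library was a pool of leaf and tuberous root RNA over several time points, with no transgene or mutation in any group. A level is therefore an average over 2 organs and over time. In such pools, fewer cells of a type and less RNA per cell cannot be told apart. Stressed and CK plants were kept in separate growth chambers, so that chamber and stress cannot be told apart in any comparison with CK.

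Lipoxygenases add oxygen to polyunsaturated fatty acids. In the chloroplast, 13-lipoxygenases act on linolenic acid, and allene oxide synthase and allene oxide cyclase turn the product into 12-oxo-phytodienoic acid (OPDA). OPDA moves to the peroxisome, where OPR3 reduces it and rounds of beta-oxidation, begun by acyl-CoA oxidases such as the ACX family, shorten it to jasmonic acid. Jasmonates are best known as wound and defence hormones, and 13-lipoxygenases of this type are known mainly from leaves. The files and the reference table pair no sequence or position with G9582, and none is given.

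The libraries differed in make-up. Between 13653 and 33410 genes were listed above 0 per library, and the 10 most abundant genes took 34.7 to 89.7% of the summed FPKM. DH replicate 2 and HT replicate 2 had the fewest genes above 0, 13653 and 14425, and in DH replicate 2 the 10 most abundant genes took the largest share, 89.7%. LOX2.1 was lowest of its group in both of these libraries, and so were 65.5% of the tested genes in DH replicate 2 and 59.9% in HT replicate 2 (ties included). The part of library make-up in the LOX2.1 values was not tested beyond the alternatives given here. The table of DR replicate 2 lacks 1519 of the gene IDs, LOX2.1 not among them.

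LOX2.1 reached 46.34 FPKM in DR, 15.85 in DH and 7.27 in HT, against at most 0.27 FPKM in CK. In DH it stood at 11.97, 0.35 and 15.85 FPKM in replicates 1 to 3. In HT the values were 1.43, 0.08 and 7.27 FPKM. In DR they were 5.45, 7.27 and 46.34 FPKM. In CK they were 0.27, 0 and 0.27 FPKM. Every DH library and every DR library lay above every CK library. DH replicate 2 did so narrowly, at 0.35 against 0.27 FPKM in the higher CK libraries. HT overlapped CK, since HT replicate 2 lay below CK replicates 1 and 3, and DH overlapped both single stresses. Of the 11208 tested genes listed in all 12 libraries, 5.04% had every DH library above every CK library, 7.08% every DR library above every CK library, and 2.61% both.

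**Figure D1:**
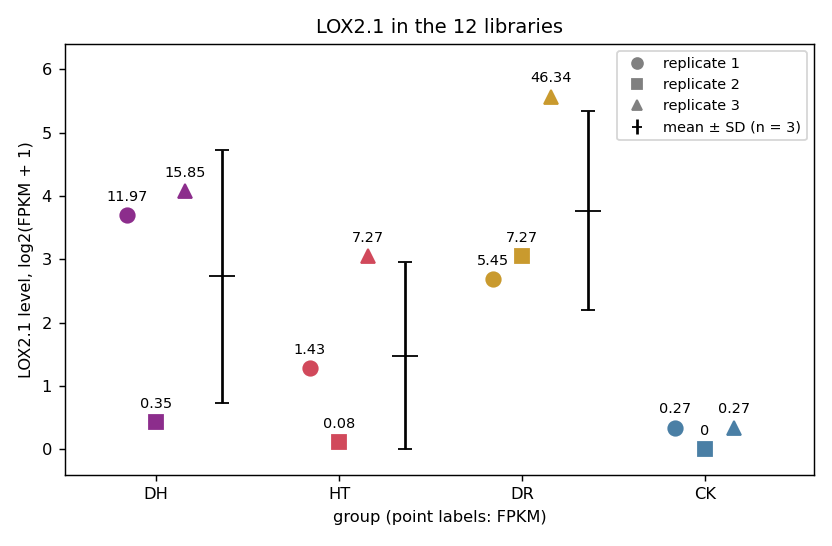
LOX2.1 level, as log2(FPKM + 1), in each library of DH, HT, DR and CK; point labels give FPKM, symbols the replicate, and bars the mean ± SD of 3 libraries (none for CK, where replicate 2 is listed at 0). DR holds the highest library at 46.34 FPKM, DH and HT each hold 1 library near the CK level, and no CK library passes 0.27 FPKM.

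Seen against the other genes of the same library, LOX2.1 held very different ranks. In DH it lay above 86.2, 44.7 and 88.9% of the genes listed above 0. In HT the shares were 55.5, 5.4 and 71.9%, and in DR 73.7, 86.3 and 95.1%. In CK they were 44.2, 0 and 12.3%. DH replicate 2 and CK replicate 1 thus placed LOX2.1 at nearly the same rank within their libraries, although the level of 0.35 FPKM was above 0.27 FPKM.

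Because the most abundant genes took very unequal shares, LOX2.1 was also expressed relative to the FPKM left after the 10 most abundant genes of each library were set aside. In units of FPKM per 1000000 of that remainder it was 21.5, 2.3 and 51.7 in DH. In HT it was 1.87, 0.225 and 17.2, and in DR 9.71, 23.1 and 83.8. In CK it was 0.402, 0 and 0.521. On this scale DH replicate 2 stood well above CK and also above HT replicate 1. HT replicate 2 remained below CK replicates 1 and 3.

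The order of the group means of log2(FPKM + 1) was DR, DH, HT and CK. They were 2.73 ± 2.0 in DH, 1.48 ± 1.48 in HT and 3.77 ± 1.57 in DR (SD, n = 3 each), and the lone 0 in CK leaves its levels to the values above. The median libraries kept another order, with 11.97 FPKM in DH, 1.43 FPKM in HT, 7.27 FPKM in DR and 0.27 FPKM in CK. Thus which of DH and DR was higher depended on the summary used. Neighbouring groups in either order overlapped, and none of those differences passed the adjusted threshold. LOX2.1 was among the more variable genes: its SD within groups, pooled over the 4 groups, was 1.47 on the log2 scale against a median of 1.0 over the tested genes, and 84.4% of them had a smaller one.

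The first question was whether each stress changed LOX2.1 relative to CK. Differences were taken in log2(FPKM + 1), a scale that understates changes of low genes, and tested with limma with Benjamini-Hochberg adjustment over the 12295 genes. A gene was called at an adjusted p under 0.05 and a difference beyond 1 in either direction. LOX2.1 was called in none of the 9 comparisons made, though 4 of them had an unadjusted p under 0.05. In DH it was higher than in CK by 2.51 (SE 1.06, 95% interval 0.33 to 4.68), with an unadjusted p of 0.026 and a limma adjusted p of 0.32. The calls in this comparison took in 0.577% of the tested genes as raised and 0.968% as lowered, and 293 genes (2.4%) had a larger positive difference. The study describes LOX2.1 as raised only under DH, from its own comparisons of RNA (by DESeq2) and of protein. In the fit used here the difference from CK was larger in DR (3.54) than in DH, and neither was called. Protein was not examined here. The study singled out LOX2.1 in DH on these same libraries, so the size of this difference is not independent of the choice of the gene.

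In DR the difference from CK was 3.54 (SE 1.06, interval 1.36 to 5.72), with an unadjusted p of 0.0026 and a limma adjusted p of 0.15. This was the largest LOX2.1 difference among the 9 comparisons, and 148 genes (1.2%) exceeded it, while 0.586% of the tested genes were called raised and 0.195% lowered. In HT the difference was 1.25 (SE 1.06, interval −0.93 to 3.43; limma adjusted p = 0.58). There 2834 genes (23.1%) had a larger difference and 0.569% were called raised. The median tested gene differed from CK by −0.37 in DH, 0.3 in HT and 0.07 in DR. The study describes the pools of a group as biological replicates, and the p-values measure the spread between these pools only. The fit assumes an equal spread in the 4 groups, so each pair of groups had the same SE, although LOX2.1 varied least in CK. With only the groups compared in the fit, the SE lay between 0.79 for HT less CK and 1.18 for DH less HT.

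**Figure D2:**
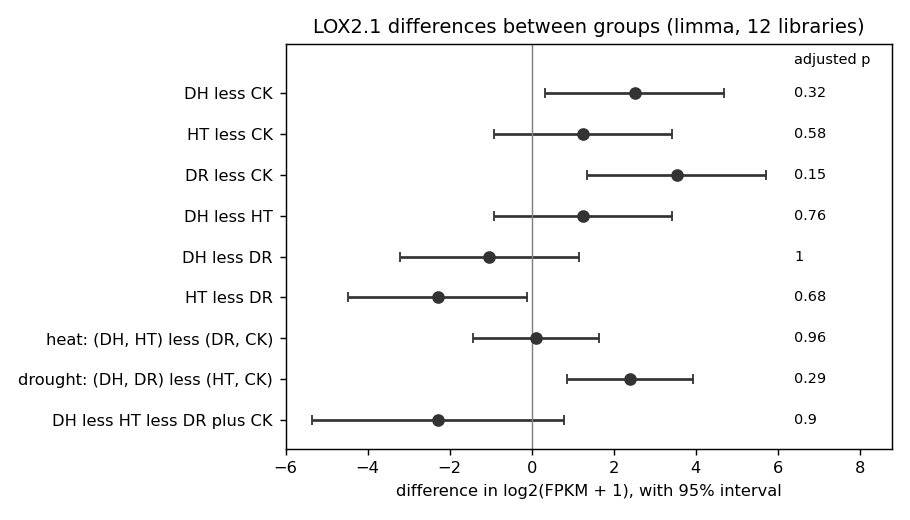
LOX2.1 differences in log2(FPKM + 1), with the 95% interval from the limma fit of 12 libraries, for the 6 pairs of groups, for heat, for drought and for the departure from additive effects; numbers at the right are adjusted p. The intervals of DH and DR less CK, HT less DR and drought lie clear of 0, and the lowest adjusted p is 0.15.

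The second question was whether the combined stress differed from the single ones. DH less HT was 1.25 (SE 1.06, interval −0.92 to 3.43; limma adjusted p = 0.76). With 1 library left out it ranged between 0.57 without HT replicate 2 and 2.41 without DH replicate 2 (limma unadjusted p = 0.041), and it was 0.77 without DH replicate 1, 0.59 without DH replicate 3 and 2.04 without HT replicate 3. DH less DR was −1.03 (SE 1.06, interval −3.21 to 1.15; limma adjusted p = 1). The interval of DH less HT leaves room for a difference of over 3 log2 units, so that LOX2.1 cannot be said to be alike in DH and HT. The sign of DH less DR rested on DH replicate 2: without it the difference was 0.12. The median tested gene stood at −0.65 in DH less HT, where 201 genes (1.6%) had a larger difference than LOX2.1. In DH less DR the median was −0.4, and 9941 genes (80.9%) had a larger difference. No tested gene was called between DH and HT by limma, although 597 had an unadjusted p under 0.05. Between DH and DR 5 genes were called, all of them lowered (0.0407%), while 15.9% of the genes listed in all libraries had every DH library below every DR library. The 3 DH libraries together exceeded the 6 libraries of the single stresses by a mean of 0.11 (exact permutation test, two-sided p = 0.95). The sign of that mean changed to −0.37 without DH replicate 1, −0.56 without DH replicate 3, −0.16 without HT replicate 1 and −0.39 without HT replicate 2.

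HT and DR, the single stresses, were compared with each other in the same way. HT less DR was −2.29 (SE 1.06, interval −4.47 to −0.11), with an unadjusted p of 0.04 and a limma adjusted p of 0.68. It was −1.39 without DR replicate 3 (limma unadjusted p = 0.24), −1.6 without HT replicate 2 (0.17) and −2.19 without HT replicate 1 (0.091), and reached −3.07 without HT replicate 3. The groups overlapped, because HT replicate 3 and DR replicate 2 both stood at 7.27 FPKM. Only 0.0163% of the tested genes were called raised and 0.0488% lowered, and the median tested gene stood at 0.23.

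The groups also form a design of 2 factors, drought and heat, and LOX2.1 was compared over each. The mean of DH and DR exceeded the mean of HT and CK by 2.4 (SE 0.75, interval 0.86 to 3.94), with an unadjusted p of 0.0037 and a limma adjusted p of 0.29. Of the tested genes, 117 (1.0%) had a larger drought difference, and 0.211% were called raised and 0.00813% lowered. The mean of DH and HT differed from the mean of DR and CK by 0.11 (SE 0.75, interval −1.43 to 1.65; limma adjusted p = 0.96). That value changed sign when DH replicate 1 (−0.13), DH replicate 3 (−0.23), HT replicate 3 (−0.28), DR replicate 1 (−0.16) or DR replicate 2 (−0.07) was left out. DH less HT less DR plus CK, which is 0 where the effects add, was −2.28 (SE 1.5, interval −5.36 to 0.8; limma adjusted p = 0.9). It was −1.13 without DH replicate 2, −1.38 without DR replicate 3 and −1.5 without HT replicate 3, and −2.97 at the other end, without HT replicate 2. No tested gene was called in that contrast by limma, while 647 had an unadjusted p under 0.05. The median tested gene stood at −0.73 in that contrast, −0.31 for drought and −0.09 for heat.

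Exact permutation tests on LOX2.1 alone gave the following. The 4 groups accounted for 54.91% of its variance on the log2 scale (exact permutation test, p = 0.096, smallest possible 6.5e-05). That p is the part of 369600 arrangements that reach at least this share, since any arrangement accounts for some of the variance. The 9 stressed libraries exceeded the 3 CK libraries by 2.43 (two-sided exact p = 0.055 over 220 arrangements, smallest possible 0.0045). Both passed 0.05 without DH replicate 2, with 73.57% (exact permutation test, p = 0.024) and 2.71 (exact permutation test, p = 0.036). Without HT replicate 2 the stressed libraries exceeded CK by 2.75 (exact permutation test, p = 0.012). DH replicate 2 and HT replicate 2 were the lowest stressed libraries, so leaving either out raises the stressed mean. In all other fits with a library left out, the exact permutation test missed 0.05. Its p was 0.067 to 0.19 for the 4 groups and 0.061 to 0.15 for stressed less CK (exact permutation test). A test of 3 libraries against 3 cannot go below 0.1 and was not run.

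The share of a single library in each difference was large. Leaving out each of the 12 libraries in turn, DH less CK ranged between 1.84 and 3.66, the upper end being reached without DH replicate 2 (limma adjusted p = 0.12) and the lower without DH replicate 3 (0.74). HT less CK ranged between 0.47 without HT replicate 3 and 1.93 without HT replicate 2. DR less CK ranged between 2.64 without DR replicate 3 (adjusted p = 0.92) and 4.08 without DR replicate 1. All 3 differences kept their sign and missed the adjusted threshold in each of these fits.

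**Figure D3:**
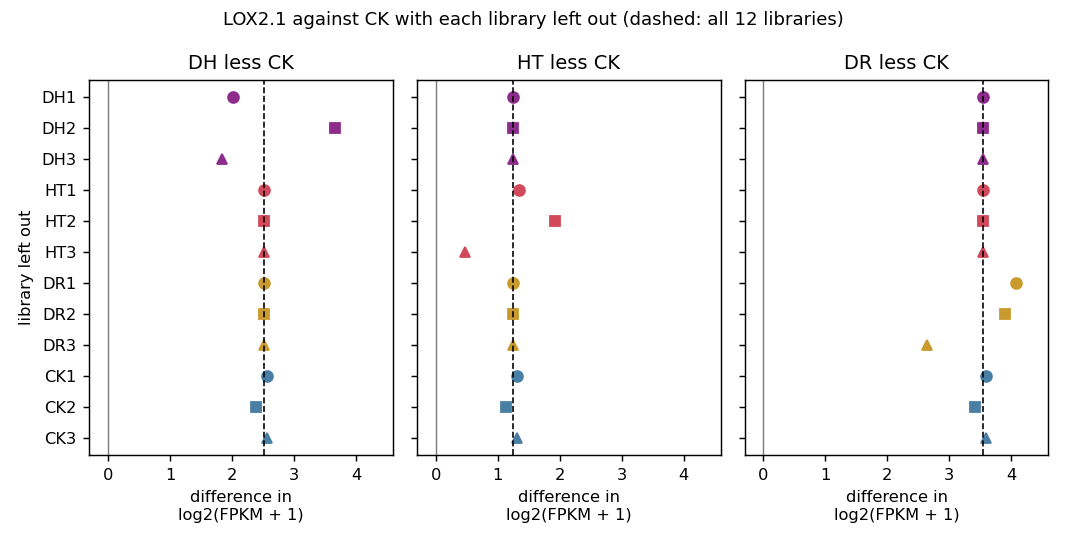
LOX2.1 differences from CK in log2(FPKM + 1) when the library named on the vertical axis is left out, for DH, HT and DR; the dashed line is the value with all 12 libraries and the grey line is 0. The values move most with DH2 (to 3.66), HT3 (to 0.47) and DR3 (to 2.64), and none crosses 0.

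With libraries weighted by their agreement with their group over all genes (limma array weights), LOX2.1 was called raised in DH, by 3.55 (limma adjusted p = 0.00049), and in DR, by 4.13 (adjusted p = 0.0039). In that fit DH replicate 3 had a weight of 8.2 and CK replicate 2 a weight of 4.6, against 0.24 for CK replicate 3 and 0.29 for HT replicate 3. The drought difference was 3.29 with these weights (adjusted p = 0.0045). With the number of genes above 0 as a covariate, chosen after the values were seen, DR was also called raised, by 4.24 (adjusted p = 0.047). HT was called in none of the alternatives.

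Next, LOX2.1 was set beside other genes of, or related to, oxylipin and jasmonate synthesis that the study's tables name. These were FAD6, OPR3 in 2 copies, ACX2 and a lipoxygenase of another oxylipin branch, LOX1.5, all 5 tested. The list was drawn from the study's tables of changed genes on these samples, so that its directions are not independent evidence. Against CK, 1 of the 5 was called raised and 1 lowered in DH, beside 0.577 and 0.968% of all tested genes. None was called in HT or DR by limma. Of all tested genes, 0.569% were called raised and 0.472% lowered in HT, and 0.586 and 0.195% in DR. Genes with an unadjusted p under 0.05 numbered 1860 in HT and 888 in DR. The median difference of the 5 listed genes was −2.48 in DH, −2.22 in HT and −1.75 in DR, beside −0.37, 0.3 and 0.07 over all tested genes.

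FAD6, a plastid desaturase that makes linoleic acid and so lies upstream of LOX2.1, had its highest values in CK. It had 0.16, 0 and 0 FPKM in DH, 0.99, 0 and 0 in HT and 0, 1.02 and 0.61 in DR, against 3.58, 1.88 and 14.17 in CK. Every stressed library lay below every CK library, as they did in DH for 11.7% of genes, in HT for 4.84% and in DR for 4.19%. The differences from CK were −2.48 (SE 0.67; limma adjusted p = 0.062) in DH, −2.22 (0.11) in HT and −1.98 (0.27) in DR, with the adjusted p in parentheses. FAD6 was called lowered in DH in 8 of 25 alternatives, among them without CK replicate 1 (−2.65) or 2 (−2.99), in HT in 3 and in DR in 1.

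LOX1.5 (MSTRG.8903), a relative known from potato as a 9-lipoxygenase, an enzyme that feeds another oxylipin branch, had its highest values in DH and DR, as LOX2.1 did. It had 280.86, 7.27 and 58.11 FPKM in DH and 1.42, 1.98 and 5.76 in HT. In DR it had 31.51 and 44.79 FPKM, DR replicate 2 not listing it, against 8.41, 1.15 and 0.45 in CK. Every DH library lay above every HT library, a pattern of 0.41% of the genes listed in all libraries, but DH overlapped CK, since DH replicate 2 lay below CK replicate 1. The difference from CK was 4.07 (SE 1.11; limma adjusted p = 0.066) in DH, 0.24 (SE 1.11; 0.94) in HT and 3.65 (SE 1.24; 0.28) in DR. All of these came from a fit of the 11 libraries that list LOX1.5. In 10 of 27 alternatives LOX1.5 was called raised in DH, among them without DH replicate 2 (5.39), HT replicate 2 (4.07) or CK replicate 1 (4.87), and in 1 of 27 in DR. Near-identical copies of a gene can share reads in this polyploid, and how the authors' pipeline split them between LOX genes is not given in the sources used here.

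OPR3, which reduces OPDA in the peroxisome, is listed as 2 genes with parallel values, and both had lower median levels in DH and HT than in DR or CK. G20440 had 56.3, 1.61 and 6.17 FPKM in DH, 25.47, 6.55 and 8.9 in HT and 23.1, 117.2 and 76.22 in DR, against 70.22, 358.52 and 327.3 in CK. Every DH and every HT library lay below every CK library, as for 11.7% of genes in DH and 4.84% in HT, while DR overlapped CK. It was called lowered in DH by limma (difference −4.31, SE 1.1; adjusted p = 0.044), and not in HT (−4.02; 0.081) or DR (−1.75; 0.96). The call in DH was lost without any 1 of 8 libraries: DH replicate 2 (−3.33) or 3 (−4.06), CK replicate 2 (−3.9) or 3 (−3.97), HT replicate 1 or any DR replicate (−4.31 each). The HT difference was called lowered in 6 of 27 alternatives, among them without CK replicate 1 (−4.77).

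The other OPR3 gene, G11747, had 32.02, 0.78 and 4.66 FPKM in DH and 10.67, 2.54 and 2.21 in HT. In DR it had 10.64, 49.48 and 32.37 FPKM, against 28.63, 163.77 and 171.79 in CK. It was not called in the fit of all 12 libraries, with −3.77 in DH (SE 1.09; limma adjusted p = 0.082), −4.21 in HT (0.058) and −1.81 in DR (0.92). The HT difference was called lowered in 11 of 27 alternatives, among them the fits without DH replicate 1 or 2 (−4.21 each) or CK replicate 1 (−5.05). The DH difference was called in 3 of 27, 2 of them without DH replicate 1 (−4.9) or CK replicate 1 (−4.61).

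ACX2, an acyl-CoA oxidase of peroxisomal beta-oxidation, was the gene of the list raised in DH. Whether ACX2 acts in jasmonate synthesis here was not tested, and ACX2 is counted again among the peroxisome genes below. It had 450.35, 24.35 and 148.67 FPKM in DH, 107.62, 10.11 and 52.67 in HT and 32.87, 26.09 and 72.05 in DR, against 2.92, 4.96 and 0.88 in CK. All 9 stressed libraries lay above all CK libraries. Of the genes listed in all libraries, 5.04% lay above CK in this way in DH, 11.0% in HT and 7.08% in DR. The difference was 5.08 in DH (SE 1.08; limma adjusted p = 0.015), 3.51 in HT (0.12) and 3.53 in DR (0.18). The DH call was lost without DH replicate 1 (4.13), DH replicate 3 (4.92) or CK replicate 3 (4.63). ACX2 was called raised in HT in 3 of 27 alternatives, among them without HT replicate 2 (4.44), and in DR in 1.

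Beta-oxidation yields acetyl-CoA, which the glyoxylate cycle uses. Isocitrate lyase (ICL2) and malate synthase (MLS) are enzymes of that cycle. Of the 4 peroxisome genes, ACX2, ICL2 in 2 copies and MLS, 3 were called raised in DH, 2 in HT and 2 in DR, beside 0.577, 0.569 and 0.586% of all tested genes. Their medians were 5.41 in DH, 4.28 in HT and 5.13 in DR. This list, too, holds genes from the study's tables and was put together with results of these samples known. MLS had 1751.98, 115.9 and 1265.15 FPKM in DH, 2576.15, 138.13 and 450.95 in HT and 930.89, 1523.77 and 1408.44 in DR, against 6.1, 9.56 and 21.52 in CK, without overlap of any stress with CK. The shares of all genes without such overlap in each stress are those given for ACX2. MLS rose by 5.74 in DH (SE 1.14; limma adjusted p = 0.0084), 5.52 in HT (0.02) and 6.73 in DR (0.0031). The DH call was lost without DH replicate 1 (5.01) or 3 (5.25), and the HT call without HT replicate 1 (4.4) or CK replicate 2 (5.43).

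The more abundant ICL2 gene, G23318, had 1395.17, 76.58 and 686.47 FPKM in DH and 155.2, 7.21 and 280.83 in HT. In DR it had 402.87, 97.93 and 307.35 FPKM, against 6, 0.43 and 0 in CK. All stressed libraries were above all CK libraries, HT replicate 2 coming closest to CK replicate 1. The shares of all genes above CK in each stress are those given for ACX2. G23318 rose by 7.61 in DH (SE 1.25; limma adjusted p = 0.0025), 5.05 in HT (0.049) and 6.74 in DR (0.0065). The HT call was lost in 8 of 12 fits with a library left out: HT replicate 1 (4.48) or 3 (4.05), CK replicate 2 (4.75) or 3 (4.49), DH replicate 3 or any DR replicate (5.05 each). The DR call was lost without DR replicate 1 (6.34) or CK replicate 3 (6.19).

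**Figure D4:**
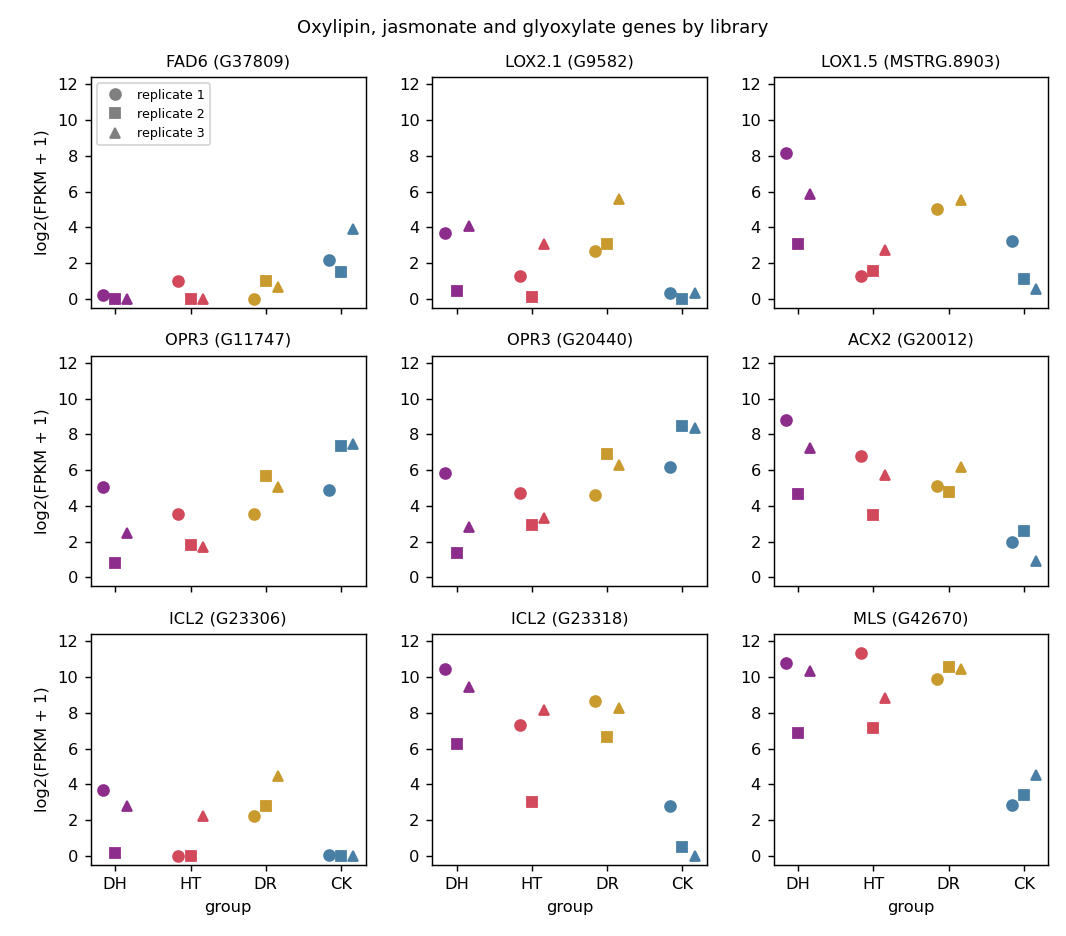
Levels in log2(FPKM + 1) of LOX2.1, the other oxylipin and jasmonate genes and the glyoxylate cycle genes in each library of DH, HT, DR and CK; symbols give the replicate, and DR replicate 2 lists no value for LOX1.5. FAD6 and both OPR3 genes stand highest in CK, and ACX2, the abundant ICL2 gene (G23318) and MLS lowest in CK. LOX2.1, ACX2, the abundant ICL2 gene and MLS have their lowest DH and HT libraries in replicate 2.

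The study also names At3g21360 for DH in the direction of LOX2.1, and an adenosine kinase gene (G294) and a methionine synthase gene (G45403) in the opposite direction, again from these samples. At3g21360 (G39574), known from Arabidopsis as a clavaminate synthase-like protein, had 105.7, 8.36 and 21.23 FPKM in DH, 10.34, 11.57 and 23.17 in HT and 27.45, 4.7 and 18.02 in DR, against 4.85, 1.36 and 9.6 in CK. Like LOX2.1 it was not called in DH (2.42, SE 1.01; limma adjusted p = 0.32), nor in HT (1.52; 0.48) or DR (1.47; 1). Unlike LOX2.1 it overlapped CK in DH, and every HT library lay above every CK library, as for 11.0% of genes. The adenosine kinase gene had 0.08, 0 and 0 FPKM in DH, against 0.43, 0.4 and 9.26 in CK. The methionine synthase gene was listed at 0 in every DH library, against 0.22, 1.07 and 7.98 FPKM in CK. Both stood near 1 FPKM or below in all libraries but CK replicate 3 and were not tested.

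Finally, the genes whose levels followed LOX2.1 most closely were sought by Pearson r over the 12 libraries among the 11207 other tested genes listed in each of them. The libraries share the group means and the differences in make-up described above, and the values are a description without a test. The median r was 0.11, 120 genes were above 0.8, and 23 above 0.9. The 10 closest genes had r between 0.926 and 0.969. Their r was 0.873 to 0.963 without DR replicate 3 and DH replicate 3, the libraries farthest from the median LOX2.1 level. It was 0.829 to 0.94 when the deviations from the group means were correlated, so that libraries of 1 group deviated in the same way for these genes as for LOX2.1. All 10 were lowest of the DH libraries in DH replicate 2, and 9 were highest of all libraries in DR replicate 3, which the choice by r itself favours.

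The closest was the other ICL2 gene, G23306 (r = 0.969, Spearman rho 0.905). It had 12.06, 0.13 and 5.8 FPKM in DH, 0, 0 and 3.71 in HT and 3.64, 5.87 and 20.65 in DR, against 0.05, 0 and 0 in CK. Its DH and DR libraries lay above all CK libraries and its HT libraries did not, as for LOX2.1. Every DH and DR library lay above every CK library for 2.61% of the genes listed in all libraries. The differences of G23306 from CK were 2.19 in DH (SE 0.95; limma adjusted p = 0.35), 0.72 in HT (0.74) and 3.12 in DR (0.17), none of them called. The abundant copy G23318 had r = 0.802 and was the 116th gene in order, MLS had 0.756 (203rd) and ACX2 0.732 (241st). For FAD6 r was −0.429, and for the OPR3 genes it was −0.07 and −0.072. At3g21360 had r = 0.609.

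The second gene was AS (G10463, r = 0.958), at 21.63, 0.34 and 21.98 FPKM in DH, 5.94, 0.15 and 17.56 in HT and 19.67, 26.81 and 74.42 in DR, against 0.04, 0.27 and 1.76 in CK. It overlapped CK in DH and HT. In DR it lay above CK, as 7.08% of genes did, and its difference was 4.51 (limma adjusted p = 0.059). The genes G11406 (r = 0.945) and G28010 (r = 0.939), which carry no symbol, followed and were called raised in DR, by 4.33 (limma adjusted p = 0.037) and 6.38 (0.032). At3g08860 (G10497, r = 0.936), known from Arabidopsis as an aminotransferase homolog, and NEC3 (G44797, r = 0.927), named after a nectar protein of tobacco, were not called in any stress. Of the 10 closest genes, 0 were called in DH and 0 in HT by limma, where 1427 and 1860 of all tested genes had an unadjusted p under 0.05, and 3 were called raised in DR, beside 0.577, 0.569 and 0.586% of all tested genes called raised in DH, HT and DR. Their median differences were 2.235 in DH, 1.08 in HT and 3.54 in DR. Because the genes were picked for following LOX2.1 over these libraries, these counts and medians describe the choice and are not independent of it.

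The chitinase CHIT1B (G47455) was the 12th gene in order (r = 0.921) and far more abundant. It had 721.07, 14.44 and 532.46 FPKM in DH, 22.89, 2.53 and 87.58 in HT and 698.32, 767.47 and 1782.9 in DR, and was listed at 0 in every CK library. It was called raised in DH (limma adjusted p = 0.0025) and DR (0.00015), and not in HT (0.1). Chitinases cleave the chitin of fungal cell walls.

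**Figure D5:**
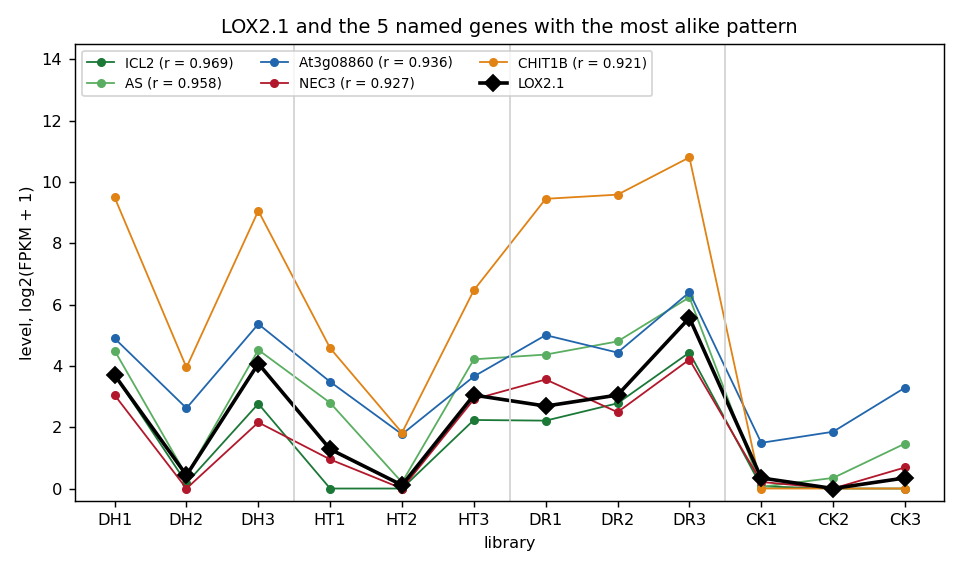
Levels in log2(FPKM + 1) of LOX2.1 (black) and the 5 genes with a symbol whose levels correlate best with it, over the 12 libraries in the order DH, HT, DR and CK; grey lines part the groups and r is Pearson's r with LOX2.1. The genes share the low values of DH2 and HT2 and the high value of DR3, and all but At3g08860 lie below 2 FPKM in each CK library.

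At the other end, the 5 lowest genes with a symbol were AED3 (r = −0.665), KOR (−0.658), CYP75B2 (−0.646), SBT1.8 (−0.642) and RER4 (−0.635). They include an aspartyl protease (AED3), an endoglucanase of cellulose synthesis (KOR), a flavonoid hydroxylase (CYP75B2) and a subtilisin-like protease (SBT1.8). SBT1.8 had 1.4, 2.43 and 0.71 FPKM in DH, 9.28, 2.89 and 1.26 in HT and 1.22, 3.16 and 2.5 in DR, against 25.42, 87.56 and 183.72 in CK. It was called lowered in all 3 stresses, with differences from CK of −4.97 in DH (limma adjusted p = 0.0059), −4.07 in HT (0.037) and −4.57 in DR (0.016).

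Since the pools mixed 2 organs, marker genes of leaf chloroplasts and of root starch were set beside LOX2.1. Both lists came from the study's tables of changed genes. The 8 leaf markers summed to 115, 39.9 and 580 FPKM in DH, 479, 138 and 380 in HT and 1170, 1440 and 3230 in DR, against 7420, 2420 and 1280 in CK. The sum of DR replicate 2 was over 7 markers, since that library lists no value for GUN4. DR replicate 3 had the highest leaf sum outside CK and the highest LOX2.1. The CK leaf sums overlapped those of DR, and CK had at most 0.27 FPKM of LOX2.1. Any tie between leaf sum and LOX2.1 level was not tested. The leaf markers at 0 numbered 4 in DH replicate 2, 3 in HT replicate 2, 2 in DH replicate 3 and HT replicate 1 and 1 in HT replicate 3, and none in DR or CK. In DH and HT the leaf sums were below all CK libraries. By limma, 2 of the 8 markers were called lowered in DH, beside 0.968% of all tested genes. In HT 0 were called lowered, beside 0.472% of all tested genes. An unadjusted p under 0.05 was found for 1860 of all tested genes in HT. The r of LOX2.1 with the 7 leaf markers listed in all libraries ranged between 0.068 and 0.224.

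The 4 starch markers summed to 0.5 to 28.7 FPKM in DH, 1.85 to 20.2 in HT and 6.45 to 45.3 in DR, against 33.6 to 1750 in CK. The markers at 0 were 2 in DH replicate 1 and 1 in HT replicate 3. Their r with LOX2.1, for the 3 tested, was −0.584 to −0.273. The part that the balance of leaf and root RNA had in the LOX2.1 differences was not tested.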

How the data were processed

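RNA of 12 pools was sequenced by the authors, who trimmed the reads (cutadapt 1.9 per the labels), used HISAT2 2.0.4 for alignment and StringTie 1.3.4d for assembly, and deposited FPKM for each gene and library. FPKM hold no read counts per gene, so no count model was run. The read totals that the study reports were not used. Groups came from the sample titles, gene symbols from the study's tables. The test was limma 3.58.1 in R 4.3.3 (two-sided, eBayes with trend) on log2 of FPKM plus a pseudocount of 1, with 12 libraries in 1 fit of 4 group means; 1087 tested genes without a value in DR replicate 2 were fitted on the rest. Correlations and exact tests were run in Python 3.11.15 (pandas 2.3.3, numpy 2.4.6, scipy 1.17.1). Scripts were tested on simulated data. LOX2.1, the gene lists, tests and rules were chosen with earlier results of these data known. Genes named are LOX2.1, the genes of the oxylipin and jasmonate, peroxisome and DH lists, the 10 tested genes most alike by r (2 of those without symbol) and the 5 named genes at each end. Alternatives were other pseudocounts, filters, scalings, fits and each library left out.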

Additional observations from a re-analysis of the deposited data

How the results depend on the processing

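LOX2.1 kept its direction in DH, HT and DR against CK in every alternative run, and was called raised only in these: array weights (DH less CK 3.55, DR less CK 4.13, drought 3.29), the replicate block (DR less CK 3.54, limma adjusted p = 0.036), the number of genes above 0 as a covariate, added after the values were seen (DR less CK 4.24), and quantile scaling (drought 2.77, limma adjusted p = 0.043). With the replicate block DH less CK had an adjusted p of 0.11. Whether the replicate numbers pair the libraries is not known and was not tested. Deviations of same-numbered libraries correlated by −0.12 to 0.6, over 0.1 in 10 of 18 pairs. Those of other pairs correlated by −0.66 to 0.5, over 0.1 in 10 of 36. With HT replicate 2 and DH replicate 2 left out together, also added later, DH less DR was 0.12, against −1.03. The exact test of the stressed libraries against CK passed 0.05 with a pseudocount of 0.1 (4.1) or 0.01 (5.31), upper-quartile (2.42), median-of-ratios (2.39) and quantile (2.44) scaling and scaling without the 10 most abundant genes (2.47); that of the 4 groups passed with quantile scaling (66.17%).

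With each library left out in turn, values ranged between 1.84 and 3.66 for DH less CK, 2.64 and 4.08 for DR less CK, −1.7 and 0.12 for DH less DR, −0.28 and 0.68 for heat, 1.95 and 2.97 for drought, 49.04 and 73.57% for the variance between groups, 2.07 and 2.75 for stressed less CK, and −0.56 and 1.26 for DH less the single stresses. LOX1.5 in HT less CK changed sign with upper-quartile (−0.21), quantile (−0.16) and median-of-ratios (−0.17) scaling and ranged between −0.3 and 1.05 with a library left out, and ICL2 (G23306) in HT less CK between −0.02 and 1.09. The causes of these changes were not tested. Over all genes, the calls in DH less CK ranged between 3 and 995 raised and 16 and 1264 lowered over the alternatives, against 71 and 119. FPKM give no read counts per gene, and no counting error was set on a level such as 0.27 FPKM.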
